A study of Sus scrofa with 13 samples.

Results

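Autophagy encloses cytoplasm in a double membrane, the autophagosome, and delivers it to lysosomes for breakdown. Proteins of the Atg8 family are attached to a lipid of that membrane, and receptors that bind them bring in chosen cargo such as ubiquitin-tagged protein or pieces of the endoplasmic reticulum. Removal of reticulum in this way is called reticulophagy. Skeletal muscle induces the pathway in fasting, disuse and denervation, and members of the FOXO family of transcription factors are known to switch on several of its genes there. The genes described here are 4: GABARAPL1 and MAP1LC3B of the Atg8 family, SQSTM1, a receptor for ubiquitin-tagged cargo, and RETREG1, a reticulophagy receptor that sits in the membrane of the endoplasmic reticulum. They were chosen by symbol, with earlier results of these data known. All 4 were found among the 10283 genes with a name on the arrays, with the brightest probe set standing for a gene.

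RNA from biceps femoris, a thigh muscle, of German Landrace pigs was hybridised to 13 whole-transcript arrays. There were 4 DMD KO and 3 WT arrays of 2 days, and 3 DMD KO and 3 WT arrays of 3 months. The labels number the arrays of a group as replicates and do not state that each is a separate pig, so p-values measure the spread between these arrays, part of which may be technical. DMD KO pigs lacked exon 52 of the dystrophin gene DMD and were cloned by nuclear transfer from kidney cells altered with a modified BAC. They were sampled right after their own death, and WT pigs were put down at like ages, so genotype, manner of death and cloning cannot be told apart. The sources used here do not say whether the WT pigs were cloned, or how many cell clones gave rise to the DMD KO pigs.

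On the log2 scale, array medians were 7.32 to 7.38 and 25th percentiles 6.53 to 6.61. Precision is limited by how few arrays each group has. The lowest value of any of the 4 genes was 7.07, above those 25th percentiles. The 95th percentile was lowest, at 9.21, on the third WT array of 2 days. It was highest, at 9.83, on the third DMD KO array of 3 months. DMD itself did not pass the test at either age by either of its probe sets (adjusted p = 0.705 and 0.423 at 2 days, 0.528 and 0.996 at 3 months by limma). No source used here says whether its probe sets cover that exon, so they do not check the labels. The skeletal muscle genes measured, ACTA1 and MYLPF, 2 of 7 listed, averaged between 11.4 and 12.3 on every array.

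In newborn muscle all 4 genes were higher in DMD KO than in WT, and the 4 DMD KO values of each gene lay above its 3 WT values. RETREG1 and GABARAPL1 were about 6-fold higher, MAP1LC3B and SQSTM1 about 2-fold. By limma, with p adjusted over all 21893 probe sets, 9.93% of them passed in newborns, 7.09% with the higher level in DMD KO and 2.85% with the lower one. Among named genes 11.4% passed, 8.06% higher and 3.32% lower. A gap between the groups in that direction was itself common, and was seen in 14.1% of probe sets.

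RETREG1 had log2 levels of 9.86, 9.66, 10.26 and 10.69 in DMD KO replicates 1 to 4 at 2 days, against 7.39, 8.04 and 7.07 in WT replicates 1 to 3. The lowest DMD KO value was well above the highest WT value. The means were 10.12 ± 0.45 in DMD KO (SD, n = 4) and 7.50 ± 0.50 in WT (SD, n = 3), and the difference was 2.62 ± 0.31 (SE, adjusted p = 0.000643 by limma). That is 6.15-fold, with a 95% interval from 3.83 to 9.87, and it placed RETREG1 at rank 3 of 10283 named genes ordered from the largest rise.

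GABARAPL1 was read by 2 probe sets. The brighter one (15293756) gave 11.85, 11.87, 12.25 and 12.58 in DMD KO replicates 1 to 4 at 2 days, against 9.85, 9.91 and 8.86 in WT replicates 1 to 3. The WT arrays differed among themselves, with replicate 3 lowest, and none came near the DMD KO values. Means were 12.14 ± 0.35 in DMD KO (SD, n = 4) and 9.54 ± 0.59 in WT (SD, n = 3). The difference was 2.60 ± 0.33 (SE, adjusted p = 0.000785 by limma), or 6.06-fold with a 95% interval from 3.70 to 9.93. The second probe set (15289381) gave 9.57, 9.41, 9.91 and 10.54 in DMD KO and 7.84, 7.66 and 7.62 in WT, a difference of 2.15 ± 0.23 (SE, adjusted p = 0.000377 by limma) in the same direction.

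MAP1LC3B, whose lipid-bound product is the customary marker of autophagosomes, rose less. Its levels at 2 days were 9.60, 9.21, 9.77 and 10.12 in DMD KO replicates 1 to 4, against 8.85, 8.63 and 8.38 in WT replicates 1 to 3. The groups did not overlap, but DMD KO replicate 2 and WT replicate 1 were close. The difference was 1.05 ± 0.22 (SE, adjusted p = 0.0105 by limma), 2.07-fold, with a 95% interval of the difference from 0.58 to 1.52.

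SQSTM1, whose protein both carries cargo into autophagosomes and is broken down with it, had 8.78, 8.33, 9.24 and 9.05 in DMD KO replicates 1 to 4 at 2 days. Its levels in WT replicates 1 to 3 were 8.09, 7.93 and 7.67. Again DMD KO replicate 2 was the lowest of its group and nearest to WT replicate 1. The difference was 0.95 ± 0.19 (SE, adjusted p = 0.00994 by limma), 1.94-fold with a 95% interval from 1.45 to 2.60. Ranked from the largest rise, MAP1LC3B stood at 205 and SQSTM1 at 267 of the 10283 named genes.

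**Figure D1:**
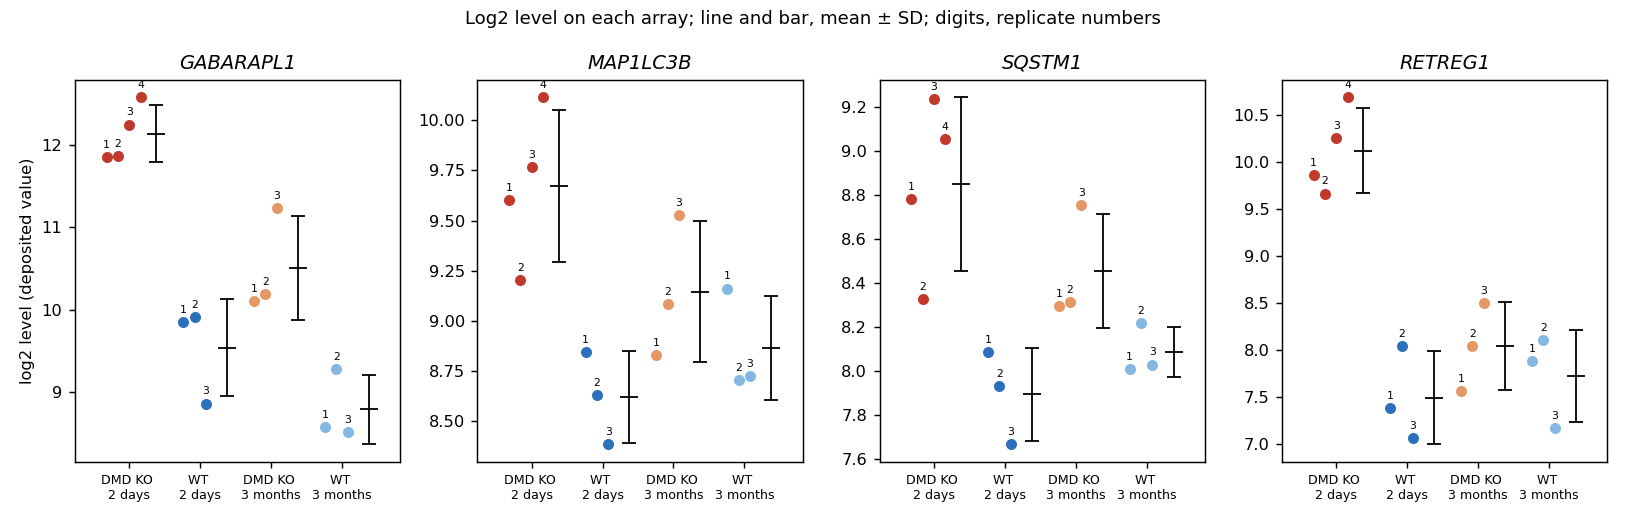
Log2 level of each gene (vertical axes, 1 panel per gene, scales differ) on each of the 13 arrays by group (horizontal axis), with the replicate number above each point and the group mean ± SD beside the points. At 2 days the 4 DMD KO points lie above the 3 WT points in every panel, and at 3 months the groups overlap for MAP1LC3B and RETREG1.

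In muscle of 3 months GABARAPL1 was the only one of the 4 that passed the test, 3.30-fold higher in DMD KO. At this age 5.98% of all probe sets passed and 4.62% were higher and 1.36% lower in DMD KO. Of named genes 7.36% passed, 5.76% higher and 1.6% lower. Its brighter probe set gave 10.11, 10.19 and 11.24 in DMD KO replicates 1 to 3, against 8.58, 9.28 and 8.51 in WT replicates 1 to 3. The groups did not overlap, and replicate 3 stood above the other DMD KO arrays. The difference was 1.72 ± 0.35 (SE, adjusted p = 0.0115 by limma), with a 95% interval from 0.96 to 2.48. Without DMD KO replicate 3 it was 1.36 (adjusted p = 0.0508), and without WT replicate 3 it was 1.58 (adjusted p = 0.0573). The second probe set gave 8.34, 8.37 and 8.92 in DMD KO and 7.79, 8.03 and 7.80 in WT, a smaller difference of 0.67 ± 0.24 that did not pass (SE, adjusted p = 0.1503, and 0.0463 without DMD KO replicate 4 of 2 days). The probe sets thus differ on the size of the rise and on the call at this age.

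RETREG1 of 3 months had 7.57, 8.05 and 8.51 in DMD KO replicates 1 to 3, against 7.88, 8.11 and 7.17 in WT replicates 1 to 3. The groups overlapped over most of their range. The difference was 0.32 ± 0.34 (SE, adjusted p = 0.622 by limma), with a 95% interval from -0.41 to 1.05.

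MAP1LC3B of 3 months had 8.83, 9.08 and 9.53 in DMD KO, against 9.16, 8.70 and 8.73 in WT, in the order of the replicate numbers. WT replicate 1 lay above DMD KO replicates 1 and 2. The difference was 0.28 ± 0.23 (SE, adjusted p = 0.529 by limma), with a 95% interval from -0.22 to 0.79. SQSTM1 had 8.30, 8.32 and 8.75 in DMD KO replicates 1 to 3 and 8.01, 8.22 and 8.03 in WT replicates 1 to 3. Its groups did not overlap, a gap that 12.9% of probe sets showed in that direction at 3 months. The difference of 0.37 ± 0.21 did not pass (SE, adjusted p = 0.365 by limma, 95% interval -0.08 to 0.82).

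Whether the genotype difference itself changed with age was tested as an interaction, the difference at 3 months minus that at 2 days, which passed for 5.05% of probe sets, positive in 3.06% and negative in 1.99% (6.17%, 3.75% and 2.41% of named genes). RETREG1 passed. Its DMD KO minus WT difference was 0.32 at 3 months against 2.62 at 2 days, an interaction of -2.30 ± 0.46 (SE, adjusted p = 0.012 by limma), and it passed whichever 1 array was left out. The interaction of GABARAPL1 was -0.88 ± 0.48 by the brighter probe set (SE, adjusted p = 0.433) and -1.48 ± 0.33 by the second one, which passed (SE, adjusted p = 0.0229). The second probe set gave -1.38 and -1.40 without DMD KO replicates 1 and 2 of 3 months (adjusted p = 0.06 and 0.0629) and -1.40 without WT replicate 2 of 3 months (adjusted p = 0.0597). For MAP1LC3B it was -0.77 ± 0.32 (SE, adjusted p = 0.24) and for SQSTM1 -0.59 ± 0.28 (SE, adjusted p = 0.35). A change of these genotype differences with age was therefore shown for RETREG1 and for 1 probe set of GABARAPL1.

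Within a genotype, RETREG1 and GABARAPL1 were lower at 3 months than at 2 days in DMD KO, a comparison in which 8.04% of probe sets passed, 4.47% higher and 3.57% lower at 3 months (9.85%, 5.7% and 4.15% of named genes). RETREG1 averaged 8.04 ± 0.47 at 3 months (SD, n = 3) and 10.12 ± 0.45 at 2 days (SD, n = 4), so it fell by 2.08 ± 0.31 on the log2 scale (SE, adjusted p = 0.00123 by limma). Only 2 of the 10283 named genes had a deeper fall. GABARAPL1 averaged 10.51 ± 0.63 at 3 months and 12.14 ± 0.35 at 2 days (SD, n = 3 and 4), a difference of -1.63 ± 0.33 (SE, adjusted p = 0.00763), and -1.31 by the second probe set (adjusted p = 0.00304). MAP1LC3B differed by -0.53 ± 0.22 (SE, adjusted p = 0.202) and SQSTM1 by -0.39 ± 0.19 (SE, adjusted p = 0.324), and neither passed.

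In WT muscle none of the 4 genes passed between the ages, where 2.89% of probe sets did, 1.71% higher and 1.18% lower at 3 months (3.33%, 1.94% and 1.39% of named genes). RETREG1 differed by 0.22 ± 0.34, MAP1LC3B by 0.24 ± 0.23 and SQSTM1 by 0.19 ± 0.21, 3 months minus 2 days (SE, adjusted p = 0.896, 0.805 and 0.842 by limma). GABARAPL1 differed by -0.75 ± 0.35 (SE, adjusted p = 0.397) by its brighter probe set and by 0.17 (adjusted p = 0.893) by the second one. The comparisons within a genotype use the same arrays as those between genotypes, so they are not separate evidence.

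**Figure D2:**
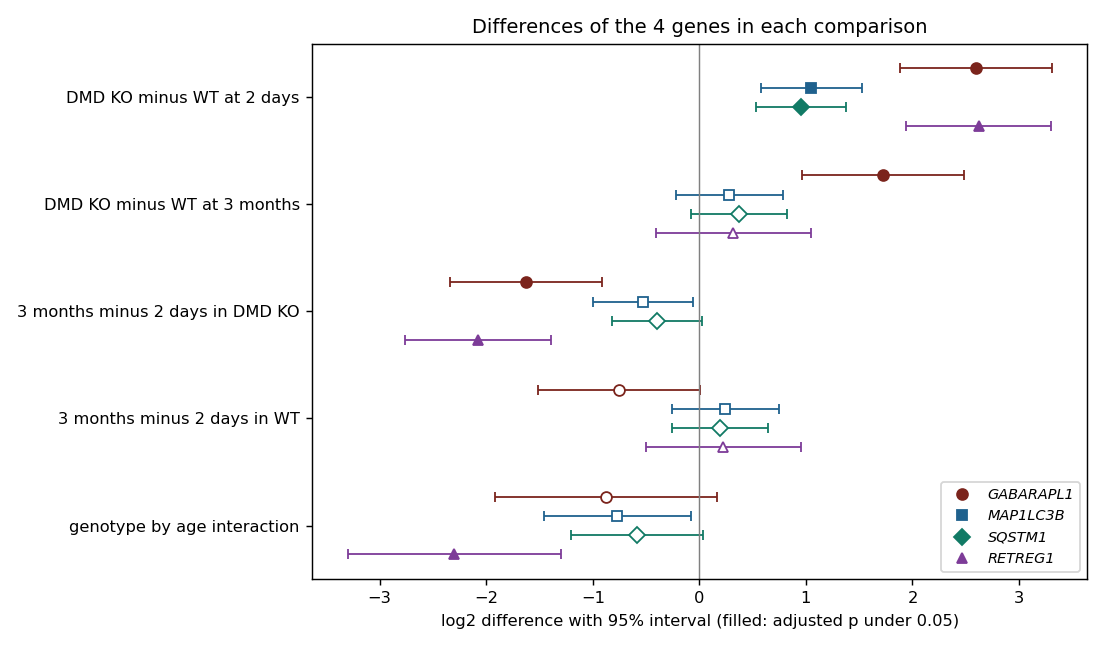
Log2 differences of the 4 genes (points) with 95% intervals (bars) in the 5 comparisons, with filled points for an adjusted p under 0.05 by limma. All 4 points are filled for DMD KO minus WT at 2 days, GABARAPL1 alone at 3 months, and RETREG1 alone in the interaction (brighter probe set of GABARAPL1 shown).

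The order of the group means was the same for RETREG1, MAP1LC3B and SQSTM1: DMD KO at 2 days highest, then DMD KO at 3 months, WT at 3 months and WT at 2 days. For these genes DMD KO at 3 months, WT at 3 months and WT at 2 days showed no neighbouring pair that passed the tests above. MAP1LC3B and SQSTM1 also did not pass between DMD KO at 2 days and at 3 months. The brighter GABARAPL1 probe set placed WT at 2 days above WT at 3 months. Its DMD KO values at 3 months, from 10.11, all lay above its WT values at 2 days, up to 9.91, a pair of groups for which no test was run.

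Arrays of a group differed in the 4 genes together. DMD KO replicate 4 was highest of its group at 2 days in 3 of the 4 genes and DMD KO replicate 2 lowest in 3. WT replicate 3 at 2 days was lowest in all 4. At 3 months DMD KO replicate 3 was highest in all 4 and DMD KO replicate 1 lowest in all 4. Among WT arrays of 3 months replicate 2 was highest in 3.

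Over the 13 deviations from the group means, the Pearson correlation between pairs of the 4 genes ran from 0.64 (GABARAPL1 with MAP1LC3B) to 0.83 (GABARAPL1 with RETREG1). The points share arrays and thus anything that moves a whole array, so these values only describe. Some of the arrays named also stood out in the bright end of all probe sets. WT replicate 3 at 2 days had the lowest 95th percentile of all arrays (9.21), and DMD KO replicate 3 at 3 months had the highest (9.83). In contrast, WT replicate 2 at 3 months had the lowest of its group (9.48) and the highest level of 3 of the genes, with the lowest of MAP1LC3B, and DMD KO replicate 2 at 2 days had 9.74, with levels below the mean of its group in all 4. Without WT replicate 3 the differences at 2 days were 2.40 for RETREG1, 2.26 for GABARAPL1, 0.93 for MAP1LC3B and 0.84 for SQSTM1, and all 4 passed (adjusted p = 0.00269, 0.00267, 0.0442 and 0.0421 by limma). After quantile normalization, which gives every array the same distribution, they were 2.53, 2.46, 0.89 and 0.89 and passed as well.

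**Figure D3:**
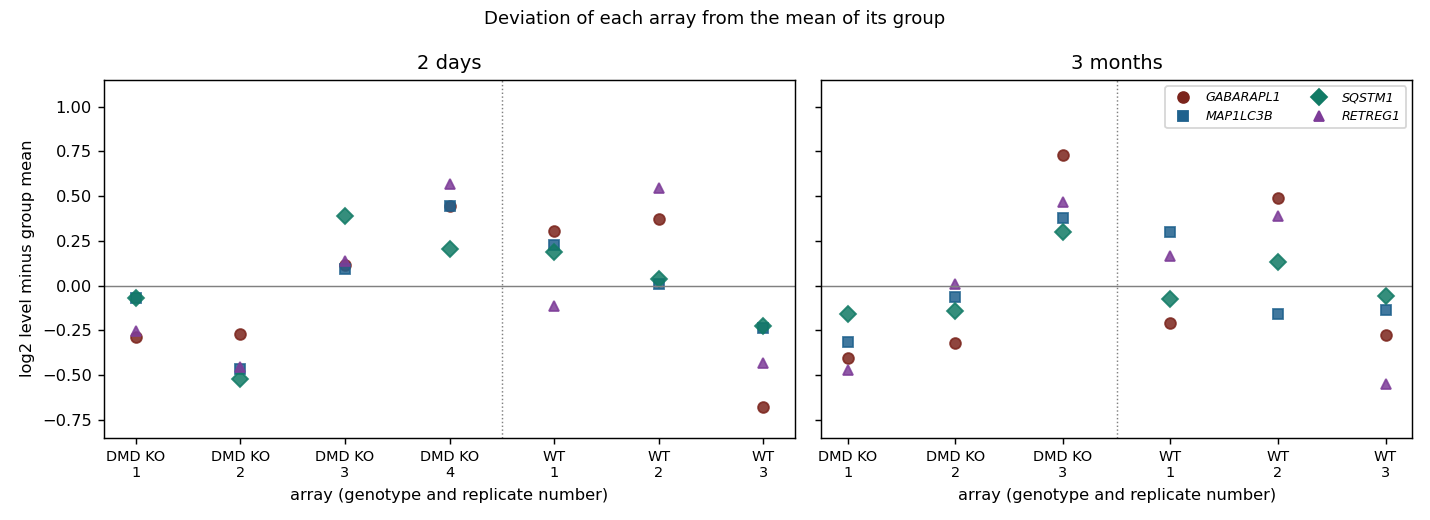
Log2 level of each gene minus the mean of its group (vertical axis) on each array (horizontal axis, genotype and replicate number), at 2 days on the left and 3 months on the right. WT replicate 3 at 2 days and DMD KO replicate 1 at 3 months lie below 0 in all 4 genes, and DMD KO replicate 3 at 3 months lies above 0 in all 4.

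The other measured members of the Atg8 family are GABARAP, GABARAPL2 and MAP1LC3A, close relatives that are attached to the autophagosome membrane in the same way. At 2 days GABARAP had 11.39, 11.36, 11.51 and 11.48 in DMD KO replicates 1 to 4, against 10.57, 10.68 and 10.49 in WT replicates 1 to 3. The groups lay well apart with little spread in either, and the difference was 0.85 ± 0.09 (SE, adjusted p = 0.000377 by limma). GABARAPL2 was higher by 0.63 ± 0.17 (SE, adjusted p = 0.034), a call lost without DMD KO replicate 2, 3 or 4 or WT replicate 1 or 3 (adjusted p up to 0.101). MAP1LC3A differed by -0.12 (adjusted p = 0.611). So 4 of the 5 family members measured passed at 2 days, all higher in DMD KO (80.0%, against 8.06% of all named genes). These include GABARAPL1 and MAP1LC3B, which were chosen with earlier results of these data known. Without them 2 of 3 were higher (66.7%), and 1 of these is GABARAPL2, whose call was not stable.

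At 3 months GABARAP was again higher in DMD KO, with 11.20, 11.39 and 11.40 against 10.97, 10.75 and 10.89 in WT. The difference was 0.46 ± 0.10 (SE, adjusted p = 0.013 by limma), and the call was lost without DMD KO replicate 2 or 3 or WT replicate 2 (adjusted p up to 0.0623). GABARAPL2 and MAP1LC3A did not pass. None of these 3 genes passed in the interaction or between ages.

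Of the other cargo receptors measured, CALCOCO2, known in human cells for bringing in bacteria and damaged mitochondria, was higher at 2 days. Its levels were 9.79, 9.76, 9.79 and 9.75 in DMD KO replicates 1 to 4 and 9.09, 9.04 and 8.29 in WT replicates 1 to 3. WT replicate 3 was far below the other WT arrays. The difference was 0.97 ± 0.22 (SE, adjusted p = 0.0177 by limma), and 0.71 without WT replicate 3 (adjusted p = 0.0652). TAX1BP1 and NCOA4, the receptor for ferritin, differed by 0.33 and 0.50 without passing (adjusted p = 0.272 and 0.105). With SQSTM1, 2 of the 4 cargo receptors measured were higher at 2 days. SQSTM1 was chosen with earlier results of these data known. Without it 1 of 3 was higher (33.3%, against 8.06% of all named genes). That 1 is CALCOCO2, whose call rested on WT replicate 3. At 3 months none of the 4 passed, against 7.36% of all named genes.

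The relatives of RETREG1 did not pass. RETREG2 and RETREG3, which have the same membrane-bending domain, differed by -0.07 and 0.09 at 2 days (adjusted p = 0.784 and 0.529 by limma) and by -0.21 and 0.07 at 3 months (adjusted p = 0.493 and 0.69). CCPG1, another reticulophagy receptor, had 9.02, 9.04, 9.16 and 9.55 in DMD KO replicates 1 to 4 at 2 days and 8.45, 8.43 and 7.81 in WT replicates 1 to 3. Its groups did not overlap, and it was higher by 0.97 ± 0.18 (SE, adjusted p = 0.00615). ATL3, an atlastin that shapes reticulum tubules and acts as a receptor, differed the other way in time. Its DMD KO minus WT difference was 0.68 ± 0.13 at 3 months, where it passed (SE, adjusted p = 0.00804), and its interaction was 0.89 ± 0.18 (SE, adjusted p = 0.0121), against -2.30 for RETREG1. Of the 11 reticulophagy and UFMylation genes measured, RETREG1 and CCPG1 were higher at 2 days and ATL3 at 3 months, and no other passed in these comparisons. RETREG1 was chosen with earlier results of these data known. Without it 1 of 10 was higher at each age, against 8.06% of all named genes at 2 days and 5.76% at 3 months. These counts rest on 1 gene each, so they do not set this list apart.

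The rest of the pathway was read from 140 listed genes beside the 4, of which 100 were measured. They start with the complexes that begin an autophagosome and end with lysosomal enzymes and regulators, and include genes of stress in the endoplasmic reticulum. At 2 days 18 of the 100 were higher and 2 lower in DMD KO, with a median difference of 0.08 against -0.02 over all probe sets. At 3 months 21 were higher and 2 lower, with a median of 0.17 against -0.05. Higher genes thus made up 18.0% at 2 days and 21.0% at 3 months of these genes, against 8.06% and 5.76% of all named genes. The lists were drawn up with earlier results of these data known, so these shares only describe and are not independent support. The counts of called genes, 20 and 23, fell to 10 without DMD KO replicate 4 of 2 days and to 8 without DMD KO replicate 3 or WT replicate 2 of 3 months. Between ages 8 were higher and 4 lower at 3 months in DMD KO, and 3 were higher in WT. These counts of 100 were near the shares of all named genes, 5.7% and 4.15% in DMD KO and 1.94% in WT.

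Genes that begin and build the autophagosome were called at 2 days in 4 cases and at 3 months in 1. Of 16 measured genes of initiation and nucleation 4 were higher in DMD KO at 2 days. ATG14, a subunit of the lipid kinase complex that starts the membrane, was higher by 0.92 ± 0.18 (SE, adjusted p = 0.00801 by limma). ATG13, a subunit of the ULK kinase complex, was higher by 0.76 ± 0.14 (SE, adjusted p = 0.00618), and WDR45, a lipid-binding protein of the growing membrane, by 0.46 (adjusted p = 0.00557). ATG2B, a lipid transfer protein, was higher by 0.85 (adjusted p = 0.0201), a call lost without DMD KO replicate 4 or WT replicate 3 (adjusted p = 0.0536 and 0.0635). At 3 months 1 of the 16 was higher (6.25%, near the 5.76% of all named genes). It was TMEM41B (0.55, adjusted p = 0.0327), a lipid scramblase, and its adjusted p reached 0.141 without DMD KO replicate 3. That call was also lost without WT replicate 2 or 3 of 3 months, or without DMD KO replicate 1 or 4 of 2 days. Mean levels of ATG14 in WT at 2 days (6.28) and of TMEM41B in WT at 3 months (6.45) lay below the 25th percentiles of the arrays.

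Of 8 measured genes that attach Atg8 proteins to lipid or free them from it, 1 was higher at 2 days and 2 at 3 months. At 3 months ATG4C, a protease that trims Atg8 proteins, had 7.75, 7.69 and 8.82 in DMD KO replicates 1 to 3, against 6.88, 5.78 and 6.14 in WT replicates 1 to 3. It was higher by 1.82 ± 0.37 (SE, adjusted p = 0.0109 by limma), from a WT mean of 6.27 that was below the 25th percentiles of the arrays. Its adjusted p was 0.0503 without DMD KO replicate 3 and 0.0546 without WT replicate 2. ATG12, a small protein of the conjugation machinery, was higher by 0.67 (adjusted p = 0.0124), and lost its call without DMD KO replicate 3 or WT replicate 2 or 3 (adjusted p up to 0.0632). ATG3, the enzyme that hands Atg8 proteins to lipid, was higher by 0.64 at 2 days (adjusted p = 0.0336). That call was lost without DMD KO replicate 1, 3 or 4 or WT replicate 1 or 3 (adjusted p up to 0.106).

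In the fusion list 1 of 12 genes was higher at each age. That is 8.33%, against 8.06% of all named genes at 2 days and 5.76% at 3 months. The shares are near each other, so the counts do not set this list apart. At 2 days it was STX17, the autophagosome's own fusion protein (0.96, adjusted p = 0.0207 by limma), a call lost without DMD KO replicate 2 or 4 (adjusted p up to 0.0629). WT replicate 3 was the lowest array for STX17, and without it the difference was 0.63 and still passed. At 3 months it was VPS39, a tethering subunit (0.58, adjusted p = 0.0264), a call lost without DMD KO replicate 2 or 3 or WT replicate 2 or 3 (adjusted p up to 0.123). Of 3 mitophagy receptors measured, BNIP3L was higher at 3 months (0.75, adjusted p = 0.026 by limma). That is 33.3%, against 5.76% of all named genes, and rests on 1 gene. The call of BNIP3L was lost without any 1 DMD KO array of 3 months or without WT replicate 2 or 3 (adjusted p up to 0.112).

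**Figure D4:**
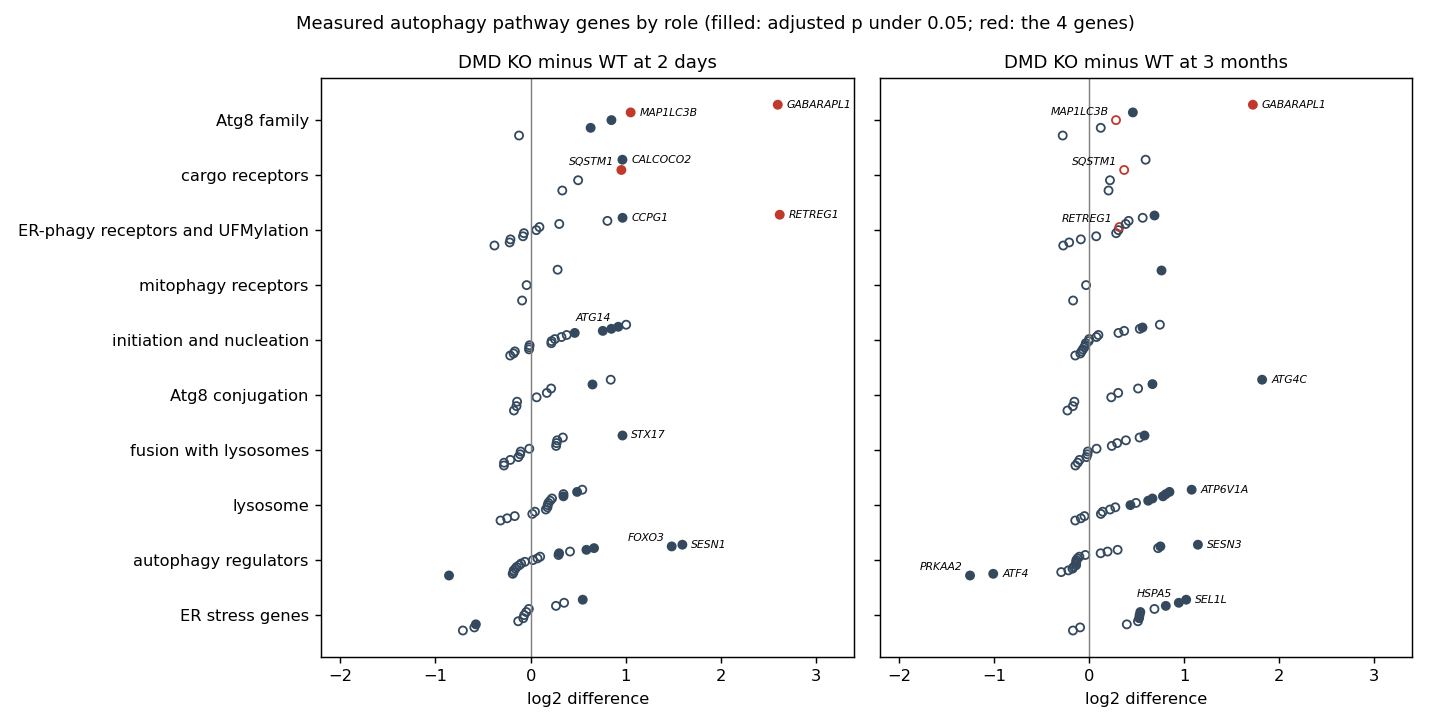
Log2 difference, DMD KO minus WT, of every measured gene of the pathway (points) by role (rows), at 2 days on the left and at 3 months on the right, filled where the adjusted p was under 0.05 by limma and red for the 4 genes described here. At 2 days filled points include 4 of 5 in the Atg8 row (2 of 3 without the genes described here). At 3 months they include 7 of 15 in the lysosome row and 5 of 11 in the row of endoplasmic reticulum stress.

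Of 15 lysosomal genes measured, 7 were higher in DMD KO at 3 months (median 0.43) and 2 at 2 days (median 0.18), and the difference between these counts was not tested. The shares were 46.7% and 13.3%, against 5.76% and 8.06% of all named genes. ATP6V1A, a subunit of the proton pump that acidifies lysosomes, had 8.24, 8.38 and 8.55 in DMD KO replicates 1 to 3 at 3 months, against 7.65, 7.15 and 7.13 in WT replicates 1 to 3. It was higher by 1.08 ± 0.19 (SE, adjusted p = 0.00455 by limma), and its interaction of 1.24 ± 0.26 passed (SE, adjusted p = 0.0152). The protease CTSL was higher by 0.78 at 3 months (adjusted p = 0.00835) and by 0.49 at 2 days (adjusted p = 0.0457), where its call was lost without any 1 of 8 arrays, among them DMD KO replicate 4 and WT replicates 1 and 3 (adjusted p up to 0.127). ATP6V1B2 and CTSA were higher at 3 months by 0.84 and 0.81 (adjusted p = 0.0339 and 0.0276), calls lost without DMD KO replicate 3 or WT replicate 2 or 3 (adjusted p up to 0.16 and 0.12), that of ATP6V1B2 also without DMD KO replicate 2, or replicate 2, 3 or 4 of 2 days. NPC2, a lysosomal cholesterol carrier, was higher by 0.35 at 2 days (adjusted p = 0.0124 by limma). Its mean was also higher in DMD KO at 3 months, 8.42 ± 0.02 against 7.98 ± 0.06 in WT (SD, n = 3 each).

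Macrophages are rich in lysosomes, and 2 of their 4 measured markers of 7 listed were higher in DMD KO at 3 months, MRC1 by 2.28 (adjusted p = 0.00144 by limma) and AIF1 by 0.72 (adjusted p = 0.00577). CSF1R and ITGAM differed by -0.04 and 0.14 at that age and did not pass (adjusted p = 0.875 and 0.562 by limma). The mean of the 4 markers, of which MRC1 had the largest difference, ran from 7.59 to 7.996 in DMD KO and from 6.86 to 7.15 in WT at 3 months. At 2 days none of the 4 passed, with means from 7.18 to 7.26 in DMD KO and from 7.09 to 7.38 in WT. Fibroblast markers moved too. At 2 days 3 of 4 measured markers of 5 listed were lower in DMD KO, with means from 10.05 to 10.40 against 11.29 to 11.42 in WT, and at 3 months 2 were higher, with means from 11.18 to 11.30 against 10.52 to 10.89. No measured marker of satellite cells (1 of 4 listed), neutrophils (2 of 4) or endothelium (3 of 4) passed at either age. Neither did any of adipocytes (2 of 4), smooth muscle (2 of 3), red blood cells (3 of 4) or skeletal muscle (2 of 7). At 3 months some list means were still lower on every DMD KO array than on any WT array. For skeletal muscle they ran from 11.66 to 11.94 against 12.12 to 12.35 in WT (ACTA1 -0.45, adjusted p = 0.0621 by limma). For smooth muscle they were 6.65 to 6.997 against 7.34 to 7.65, and for endothelium 7.84 to 8.01 against 8.099 to 8.52. Neutrophil means were too, and satellite cell and adipocyte levels at 2 days. Gaps with DMD KO higher were seen in 14.1% of probe sets at 2 days and 12.9% at 3 months. Those with DMD KO lower were not counted, so the gaps given here only describe. In RNA of whole muscle, fewer cells of a type and less RNA per cell cannot be told apart, and the part of these cells in the levels above was not tested.

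Regulators of autophagy went in both directions. FOXO3, a FOXO factor that switches on autophagy genes in mouse muscle, had 9.46, 9.30, 9.19 and 9.85 in DMD KO replicates 1 to 4 at 2 days and 8.31, 8.01 and 7.58 in WT replicates 1 to 3. It was higher by 1.48 ± 0.22 (SE, adjusted p = 0.00183 by limma) and in DMD KO it was lower at 3 months than at 2 days (-1.08 ± 0.22, SE, adjusted p = 0.00801). SESN1, a sestrin that restrains the growth kinase MTOR, had 11.73, 11.58, 11.64 and 12.01 in DMD KO at 2 days, against 10.89, 10.28 and 9.25 in WT, with WT replicate 3 far below the others. It was higher by 1.60 ± 0.32 (SE, adjusted p = 0.0097). RHEB, the small GTPase that activates MTOR, was higher by 0.67 (adjusted p = 0.0319), a call lost without DMD KO replicate 3 or 4 or WT replicate 1 or 3 (adjusted p up to 0.133). SESN3, another sestrin, was the regulator lower in DMD KO at 2 days, with 7.02, 7.41, 6.60 and 7.25 against 8.04, 8.15 and 7.59 in WT. The difference was -0.86 ± 0.25 (SE, adjusted p = 0.0476), a call lost without any 1 of 9 arrays, among them each DMD KO array of 2 days and WT replicates 1 and 2 (adjusted p up to 0.118). At 3 months SESN3 was higher, with 8.27, 8.40 and 8.99 in DMD KO against 7.89, 7.03 and 7.31 in WT. That difference was 1.14 ± 0.27 (SE, adjusted p = 0.0232), a call lost without DMD KO replicate 3 or WT replicate 2 or 3 (adjusted p up to 0.115). Its interaction of 2.00 ± 0.36 passed whichever 1 array was left out (SE, adjusted p = 0.00719). TFEB and TFE3, the factors that drive lysosome genes, differed by 0.07 and -0.19 at 2 days and by -0.14 and -0.10 at 3 months, and neither passed (adjusted p from 0.151 to 0.673).

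At 3 months ATF4, a stress transcription factor, was lower in DMD KO, with 9.38, 9.38 and 9.40 against 10.43, 10.44 and 10.32 in WT. The difference was -1.01 ± 0.14 (SE, adjusted p = 0.000827 by limma). Its level in WT was higher at 3 months than at 2 days by 1.71 ± 0.14 (SE, adjusted p = 5.77e-05), its DMD KO minus WT difference at 2 days was 0.59 (adjusted p = 0.0136), and the interaction was -1.60 ± 0.19 (SE, adjusted p = 0.000444). PRKAA2, the catalytic subunit of AMP kinase that prevails in muscle, was likewise lower in DMD KO at 3 months (-1.25 ± 0.22, SE, adjusted p = 0.00499), with a level in WT higher at 3 months than at 2 days by 1.38 (adjusted p = 0.00558). NFE2L2, the factor of the antioxidant response, was higher by 0.75 at 3 months (adjusted p = 0.0141), and lost its call without DMD KO replicate 3 or WT replicate 2 (adjusted p = 0.0713 and 0.0675). Of the 19 regulators measured 5 were higher and 1 lower at 2 days, and 2 higher and 2 lower at 3 months. Thus 31.6% passed at 2 days and 21.1% at 3 months, against 11.4% and 7.36% of all named genes.

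Of 11 measured genes of stress in the endoplasmic reticulum, 18.2% passed at 2 days, against 11.4% of all named genes. At 2 days 1 of 11 was higher (DNAJB9, 0.55, adjusted p = 0.0399 by limma) and 1 lower (CALR, -0.58, adjusted p = 0.0239), with a median of -0.07. Both calls were lost without at least 1 array of 2 days, including DMD KO replicates 1 and 4 (adjusted p up to 0.166 without WT replicate 3 for DNAJB9 and 0.071 without DMD KO replicate 4 for CALR). At 3 months 5 of 11 were higher (45.5%, against 5.76% of all named genes), with a median of 0.53. CALR, a calcium-binding chaperone, was higher by 0.81 ± 0.15 (SE, adjusted p = 0.00682), and its interaction of 1.38 passed (adjusted p = 0.00203). At that age HSPA5, the main chaperone of the reticulum, had 10.27, 10.99 and 10.91 in DMD KO replicates 1 to 3, against 10.11, 9.75 and 9.49 in WT replicates 1 to 3. Its difference of 0.94 ± 0.23 passed (SE, adjusted p = 0.0307), and did not without DMD KO replicate 2 or 3 or WT replicate 2 or 3 (adjusted p up to 0.138). At 2 days it differed by -0.71 (adjusted p = 0.0568). Its interaction was 1.65 ± 0.32 (SE, adjusted p = 0.00958). Whether these genes bear on the level of RETREG1 was not tested.

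Over the 13 arrays, the named genes whose levels ran most like those of each of the 4 were listed by Pearson correlation. For GABARAPL1 they were FOXO3 (0.976), ABHD2 (0.976), GLUL, the glutamine synthetase (0.971), ZDHHC9 (0.970) and ERMARD (0.965). Over deviations from the group means its list held none of these. It was LGALS8 (0.956), PITPNC1 (0.924), L3MBTL3 (0.912), DNAJC16 (0.897) and TMEM167B (0.895). For RETREG1 they were PITPNC1, a phosphatidylinositol transfer protein (0.978), DAPK2 (0.967), JMY (0.966), CTDSPL (0.956) and PCCA (0.956), and PITPNC1 was also first over deviations from the group means (0.941). MAP1LC3B and SQSTM1 shared 3 of their 5 genes, which were PSMC1, an ATPase of the proteasome, FBXO32, the atrophy ubiquitin ligase atrogin-1, and EIF4E3, a cap-binding protein. These were at 0.955, 0.947 and 0.945 for MAP1LC3B and at 0.943, 0.934 and 0.958 for SQSTM1. JAK1 (0.953) and CENPQ (0.943) completed the list of MAP1LC3B, and ERCC3 (0.952) and RPL13A (0.932) that of SQSTM1. The 13 points fall into 4 groups and share arrays, so a gene with the same group difference ranks high by that alone.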

How the data were processed

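The deposited table holds 21893 probe sets on 13 arrays. The submitters' processing notes name Affymetrix Power Tools, with which the authors made these log2 values before they were deposited. The log base was inferred from the range (2.81 to 13.8). No source used here states the version, summary method, background correction or normalization. No further normalization or filter was applied.

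Gene names came from the platform annotation: 11028 probe sets had 1 symbol, 418 several and 10447 none, and 5 symbols were updated by gene number. The brightest probe set, by its mean over the 13 arrays, stood for a gene. No coordinates or sequences are printed, since no source used here names the build of the probe sets.

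All 4 groups were fitted together with limma 3.58.1 in R 4.3.3 (9 residual degrees of freedom). Tests were two-sided, with Benjamini-Hochberg adjustment over all probe sets and calls under 0.05. The fit was tested on simulated data. The 4 genes and the pathway and marker lists were chosen with earlier results of these data known, and no list was tested as a set. Pathway genes were named by rule: every called gene of the Atg8, cargo receptor and reticulophagy lists, the 4 called genes with the largest difference of each other list per comparison, and up to 2 uncalled genes of a list by value. The text gives a part of these. Alternatives were a fit on the groups compared, eBayes with trend and robust settings, array weights, quantile normalization, median centring, a filter on dim probe sets, averaging of probe sets, a replicate block and leaving out each array.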

Additional observations from a re-analysis of the deposited data

Results flagged for a closer look

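The genotype difference changed with age, by the interaction in limma, for RETREG1 (-2.30, adjusted p = 0.012) and for the second probe set of GABARAPL1 (-1.48, adjusted p = 0.0229), where the brighter probe set did not pass. Among the other pathway genes named it was negative for ATF4 (-1.60) and PRKAA2 (-1.55). It was positive for SESN3 (2.00), HSPA5 (1.65), CALR (1.38), ATP6V1A (1.24), XBP1 (0.99) and ATL3 (0.89). The call of XBP1 (adjusted p = 0.0471) was lost without any 1 of 10 arrays, and that of the second GABARAPL1 probe set without any 1 of 3 arrays (DMD KO replicate 1 or 2 or WT replicate 2 of 3 months, adjusted p up to 0.0629). The calls of RETREG1, ATF4, PRKAA2, SESN3, HSPA5, CALR, ATP6V1A and ATL3 held whichever array was left out.

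In DMD KO of 2 days, replicate 4 lay far above the other 3 arrays for GABARAPL2, where its gap to the nearest array was 0.938 of the range of the group, and for ATG13, where it was 0.896. Both gaps pass Dixon's 95% limit for a group of this size, which chance passes in about 1 in 20 groups. The check was run on the 4 genes, the second GABARAPL1 probe set and every called pathway gene named by the rule. With that many genes checked, some gaps of this size would arise by chance, so they are given as description only.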

How the results depend on the processing

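Of 416 values of the 4 genes under alternatives, 410 kept the direction and side of the threshold, 5 lost a call and 1 gained one. With the replicate block, MAP1LC3B and SQSTM1 at 2 days were 0.90 and 0.89 (adjusted p = 0.0551 and 0.0604) and GABARAPL1 between ages in DMD KO was -1.48 (adjusted p = 0.0574). With array weights MAP1LC3B between ages in DMD KO was -0.65 (adjusted p = 0.0303). Leaving out 1 array gave GABARAPL1 at 3 months 1.36 to 1.97. No value changed sign.

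Numbers pair no animals by the labels. In their deviations 4 of 18 same-numbered pairs of arrays correlated above 0.1, against 16 of 45 pairs with other numbers. Deviations cancel within each group, so these correlations cannot show whether arrays of the same number share anything else. Number 4 occurs only in DMD KO of 2 days. The block therefore gives that array no weight in any difference, so calls lost with the block come partly from losing an array. It called 735, 829, 1087, 325 and 580 probe sets (DMD KO minus WT at 2 days and 3 months, between ages in DMD KO and WT, interaction), against 2175, 1310, 1760, 633 and 1105, and 5, 10, 5 and 4 pathway genes at 2 days, 3 months, between ages in DMD KO and in the interaction, against 20, 23, 12 and 8. The fit on the groups compared called 1275 probe sets at 2 days and 40 between ages in WT, and 11, 12, 21 and 1 pathway genes in the first 4 comparisons. Array weights called 2310, 3258, 1225 and 1892 probe sets (3 months, DMD KO and WT between ages, interaction) and 20, 7 and 14 pathway genes (the last 3 of these). Quantile normalization called 8 pathway genes between ages in WT and 13 in the interaction. Leaving out 1 array, probe sets called ranged from 1143 to 3210 at 2 days, 702 to 2036 at 3 months and 368 to 757 between ages in WT. Pathway genes called then ranged from 10 to 24, from 8 to 28 and from 3 to 5. The lowest counts came without DMD KO replicate 4 (2 days), DMD KO replicate 3 (3 months, equalled for pathway genes by WT replicate 2) and WT replicate 3 of 3 months (probe sets between ages in WT). The cause was not tested.

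Of 60 calls of named pathway genes 30 held whichever 1 array was left out, 35 were lost with the block and 18 with only the groups compared.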
